A study of Drosophila simulans with 12 samples.

Results

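Abdomens of sterile males were set against abdomens of fertile males of Drosophila simulans, a comparison that uses 6 of the 12 arrays of the study, chosen by their tissue and line labels. The sterile group (3 arrays, labelled A, B and C) came from a line whose X chromosome carries the OdsH locus as the S variant from D. mauritiana. The fertile group (3 arrays, again A, B and C) came from a line with the F variant from D. mauritiana. Introgressed D. mauritiana sequence is thus shared by both lines, and the design text places their difference in a stretch with exons 3 to 4 of OdsH, which encodes a homeodomain protein known for its part in hybrid male sterility. Males were 3 to 4 days old, and 50 on average were taken from each line for abdomens, so each array holds RNA of pooled males. Each condition was 1 line, so the introgressed stretch and any other difference between these lines cannot be told apart. The labels mention separate extractions but no separate cultures, so the p-values below rest on a spread between arrays that could be technical. The other 6 arrays, of testis from the same lines, enter only where the abdomen difference is set against the testis one.

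A whole male abdomen holds the midgut and hindgut, the Malpighian tubules, fat body, body wall muscle and cuticle, together with testes, accessory glands and ejaculatory duct. The midgut secretes trypsin-like and Jonah proteases, maltases, lipases and lysozymes that break down food. The accessory glands make the seminal proteins passed to females in mating, and the fat body stores lipid and secretes antimicrobial peptides under the Toll and Imd pathways. In such bulk RNA, fewer cells of a type and less RNA per cell cannot be told apart.

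The B array of each line carried transcripts of females and eggs, although the labels give all samples as male. Yp1, a yolk protein gene, had intensities of 228.5, 48443 and 402.8 on the sterile A, B and C arrays, against 423.3, 26135 and 274.3 on the fertile ones. Vm26Aa, a vitelline membrane gene of the eggshell, had 186.7, 13389 and 102.4 in the sterile line, against 173.4, 7508 and 160 in the fertile line. The chorion gene Cp15 had 84.3, 12145 and 70.8 in the sterile line, against 74.7, 5061 and 95.2 in the fertile line. In each of these genes the B arrays of both lines stood far above the other 4 arrays. The oocyte genes osk and dhd showed the same order, with 897.5 and 1473 on the sterile B array and 426 and 1514 on the fertile B array, where the other arrays reached at most 69.3 for osk and 21.1 for dhd. Of 29 yolk, eggshell and oocyte genes on the array, a list drawn up after these values had been seen, 26 had both B arrays above all other arrays. The 16 of them bright enough to be tested averaged 8.16, 11.60 and 7.95 on the log2 scale in sterile A, B and C, against 8.01, 11.64 and 7.67 in the fertile line. None of the 16 passed the test between the lines (limma, smallest adjusted p = 0.804). Their standard errors ran between 0.28 (grk) and 2.11 (Yp1) on the log2 scale, against a median of 0.26 over all tested probe sets. The gap between the B array and the others of a line enters this error. For most of these genes the test could therefore hardly find a difference, and it does not show that the lines were equal. Male markers were present on the B arrays as on the others: 9 testis markers averaged 11.03, 10.77 and 11.21 in sterile A, B and C, against 11.17, 10.92 and 11.46 in the fertile line. Since both lines hold 1 such array, results are given with all 6 arrays and also without the B arrays, which leaves 2 against 2. The source of the female transcripts was not tested.

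**Figure D1:**
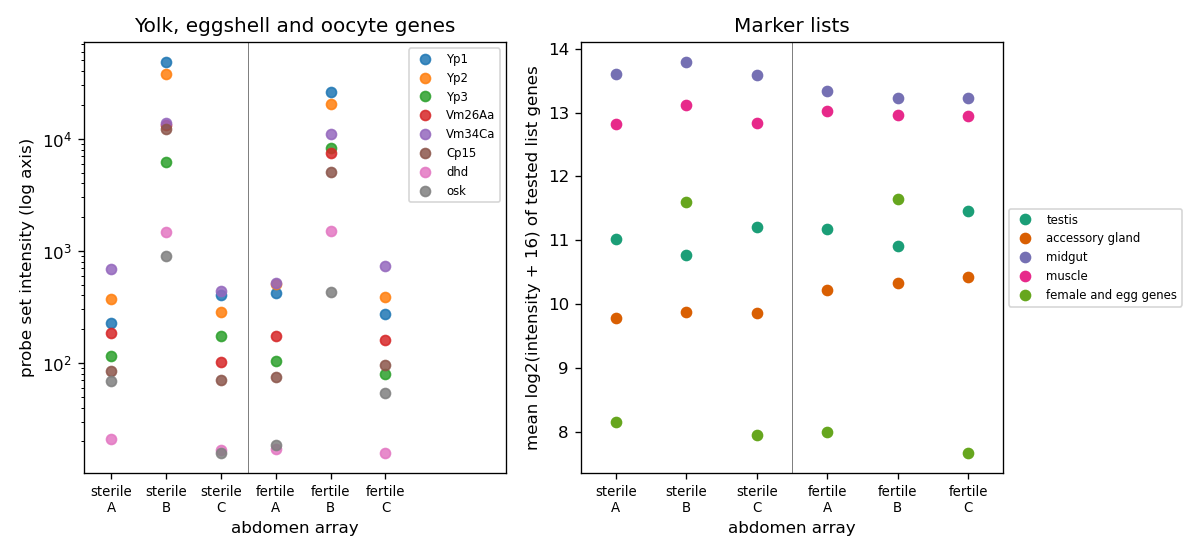
Left, intensities (log axis) of 8 yolk, eggshell and oocyte genes on the 6 abdomen arrays, 1 point per gene and array, sterile arrays left of the line and fertile arrays right of it. Right, mean log2(intensity + 16) of the tested genes of 5 marker lists on the same arrays; the female and egg genes rise to 11.60 on sterile B and 11.64 on fertile B, while the testis markers stay between 10.77 and 11.46.

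Few transcripts differed between sterile and fertile abdomens. Of 6983 probe sets bright enough to be tested, 38 passed limma's moderated test at a Benjamini-Hochberg adjusted p under 0.05, which is 0.544%. Among them 18 were higher (0.258% of those tested) and 20 lower (0.286%) in sterile males. Their absolute log2 fold changes, here and below of log2(intensity + 16) as sterile minus fertile, ran between 0.66 and 4.23 with a median of 1.45. Over all tested probe sets the median absolute change was 0.202 and the median signed change 0.01. An unadjusted p under 0.05 was reached by 567 probe sets, 273 higher and 294 lower. A log2 fold change of at least 1 in either direction was seen in 175 probe sets, of which 31 passed. In each of the 38 the sterile and fertile arrays were fully separated, which is true of 14.1% of all probe sets tested (7.09% with the sterile arrays higher and 7.02% with them lower).

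Correlations of log2 values between arrays ran between 0.894 and 0.921 between lines and between 0.902 and 0.918 within lines. They were taken across all 13966 non-control probe sets, dim ones included, which are not independent replicates. Pairs between lines include pairs of the same letter, and no pair within a line shares a letter. The ranges therefore do not show that the lines were as alike as replicates. Arrays with the same letter deviated together from their line means, so the fit was repeated with the letter as a block. That fit called 65 probe sets (0.931%), 26 higher and 39 lower, and held 37 of the 38. Without the B arrays 21 passed (0.301%), of which 19 were among the 38, and all 38 kept their sign. With the block and without the B arrays 36 passed, 28 of them among the 38. In a fit with no variance trend, where the expected spread does not depend on brightness, 15 of the 38 passed and 23 did not (adjusted p up to 0.337). The 23 were CG16926, CG6271, CG18180, Syb, Acp95EF, Mpcp2, CG16826, Jon44E, RpL28, CG1265, Jon65Ai, CG6295, CG6283, CG11594, Tektin-A, Scsalpha2, CG3868, Gdh, Dip-B, the probe set shared by CG18284 and CG31872 and the 3 probe sets with no symbol. With no filter 6 calls were lost, those of CG18180, CG17197, CG6295, CG11594, CG31883 and Tektin-A. Centring the arrays on their medians ended 6, those of CG16926, Syb, CG17197, CG6295, CG11594 and Gdh, and quantile normalization ended those of CG18180 and CG6295.

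**Figure D2:**
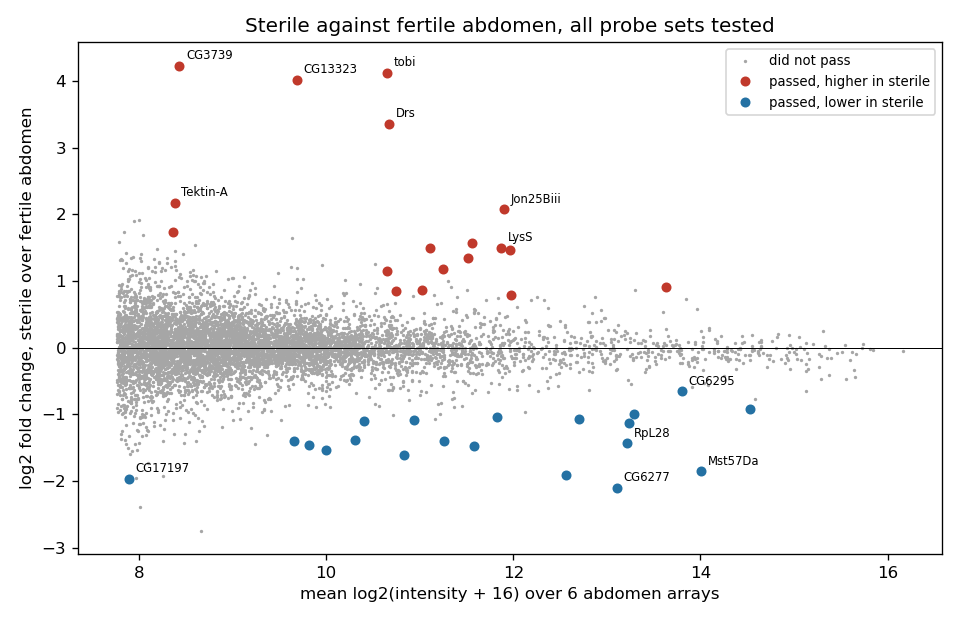
Sterile over fertile log2 fold change in abdomen (vertical axis) against the mean log2(intensity + 16) over 6 arrays (horizontal axis) for the 6983 tested probe sets. The 18 that passed with higher values in sterile males (red) reach 4.23, and the 20 that passed with lower values (blue) reach -2.11.

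Sugar-digesting enzymes were led by tobi, which encodes an alpha-glucosidase known as a target of brain insulin. It had intensities of 6677, 5072 and 8893 on sterile A, B and C, against 597.6, 342.6 and 244.5 on fertile A, B and C. Every sterile array lay above every fertile one, with a difference of 4.12 ± 0.31 on the log2 scale (SE, limma adjusted p = 0.000681), or 17.4-fold on the log2(intensity + 16) scale. It was 4.27 without the B arrays (adjusted p = 0.00558). Of 17 tested genes for carbohydrate digestion tobi was the sole one to pass. Of the other 16 genes 14 were above 0, with a median of 0.47, against 0.01 over all probe sets. Values in 5 of these 16 did not overlap between the lines, all 5 higher in sterile males, against the 7.09% given above for all probe sets. Mal-B2, a maltase gene, measured 0.93 ± 0.28 (SE, adjusted p = 0.323). Mal-A1, the brightest maltase gene, had 21076, 16377 and 21413 in sterile males against 17245, 12621 and 10309 in fertile males, which overlap (log2 fold change 0.57, adjusted p = 0.409). The amylase gene Amy-d and the maltase gene Mal-A5 were the 2 with values below 0, at -0.21 and -0.34, and neither passed.

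Digestive serine proteases split into genes higher and genes lower in sterile males. Jon25Biii, of the Jonah family, had 7067, 8888 and 7650 in sterile A, B and C, against 1885, 1721 and 1945 in fertile males. The lines were well apart, 2.07 ± 0.14 on the log2 scale (SE, adjusted p = 0.000561), which had the smallest adjusted p of all 6983 probe sets. Jon44E had 2837, 3621 and 4911 in sterile males against 1474, 1023 and 1464 in fertile males (log2 fold change 1.49 ± 0.23, adjusted p = 0.0233). Jon65Ai had 16466, 20103 and 15990 in sterile males against 9773, 8629 and 9299 in fertile males (0.92 ± 0.13, adjusted p = 0.0121). In the other direction CG18180, annotated in D. melanogaster as a serine protease of this class, had 1269, 2134 and 1221 in sterile males against 4094, 4806 and 3147 in fertile males (-1.40 ± 0.24, adjusted p = 0.0451). Of 28 tested genes of the list 3 rose and 1 fell, against 0.258% and 0.286% of all probe sets, and the median was 0.06. With the letter as a block 4 rose and 3 fell, where the block fit called 26 higher and 39 lower among all 6983 probe sets. Jon99Ci joined those that rose (1.24, block adjusted p = 0.0494), and Jon25Bi (-0.77, block adjusted p = 0.0441) and epsilonTry, a trypsin gene (-0.64, block adjusted p = 0.0168), joined those that fell. Without sterile B both passed with no block as well (Jon25Bi -0.96, adjusted p = 0.00998, and epsilonTry -0.77, adjusted p = 0.0151). Neither passed when any other array was left out (adjusted p up to 0.377 and 0.339). Without the B arrays of both lines Jon25Bi passed (0.0354) and epsilonTry did not (0.0585).

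The brightest proteases had log2 fold changes near 0. Jon65Aiv had 55522, 67019 and 45812 in sterile males against 61138, 54220 and 46007 in fertile males, and alphaTry, a trypsin gene, had 56056, 61452 and 46495 against 59989, 56495 and 47820. Their log2 fold changes were 0.05 ± 0.16 and -0.01 ± 0.14 (SE), and that of betaTry was -0.06 ± 0.16. Jonah genes resemble each other in sequence, and hybridisation of 1 member's RNA to another's probes was not tested. Leaving out 1 array ended the call of Jon44E in 5 of 6 fits (adjusted p up to 0.0736, without sterile B, sterile C or any fertile array), of Jon65Ai in 4 (up to 0.0687, without sterile A or any fertile array) and of CG18180 in 5 (up to 0.206, all but without sterile B). Without the B arrays the adjusted p was 0.0044 for Jon25Biii, 0.15 for Jon44E, 0.0795 for Jon65Ai and 0.0266 for CG18180.

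Lysozymes, enzymes that break down bacterial cell walls and serve digestion in the fly midgut, moved in opposite directions. LysS had 6350, 5589 and 6859 in sterile A, B and C, against 2207, 2321 and 2096 in fertile males. It rose by 1.49 ± 0.13 on the log2 scale (SE, adjusted p = 0.00107), and by 1.61 without the B arrays (adjusted p = 0.00666). LysX fell, with 512.4, 431.9 and 500 in sterile males against 1212, 1286 and 1409 in fertile males (-1.41 ± 0.17, adjusted p = 0.00687). The LysX call was lost without fertile C (adjusted p = 0.0567) and without the B arrays (0.0795). Of 14 tested lysozyme genes 9 were below 0, with a median of -0.29. The brightest ones, LysB, LysC and LysD, lay between -0.41 and -0.48 with overlapping lines and adjusted p of 0.673, 0.738 and 0.656, although LysD passed without sterile B (-0.77, adjusted p = 0.0311).

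The lipase genes that passed were all lower in sterile males. CG6277, annotated in D. melanogaster as a lipase of the pancreatic type, had 3341, 5750 and 3951 in sterile A, B and C, against 18314, 18118 and 18438 in fertile males. The fertile arrays were nearly equal and every sterile array was far below them. The change on the log2 scale was -2.11 ± 0.18 (SE, adjusted p = 0.00107), or 4.31-fold higher in fertile males. Its relatives CG6271, CG6283 and CG6295 also fell. CG6283 had 7110, 7008 and 7075 in sterile males against 16062, 13265 and 13225 in fertile males (-0.998 ± 0.12, adjusted p = 0.00523). CG6271 had 681.1, 659.2 and 437.2 against 1638, 1971 and 1583 (-1.54 ± 0.21, adjusted p = 0.0121), and CG6295 had 11786, 12207 and 10156 against 18654, 17901 and 17165 (-0.66 ± 0.11, adjusted p = 0.0487).

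Over the lipase list, 0 of 16 tested genes rose and 4 fell, against 0.258% and 0.286% of all probe sets. The list was chosen with earlier results of these data known, so part of this excess could be built in. The 4 are relatives, and hybridisation of 1 member's RNA to another's probes was not tested. In the list 12 were below 0, and the median was -0.54, against 0.01 over all probe sets. The lines did not overlap in 10 of the 16, against 14.1% of all probe sets. Of these 7 were lower and 3 higher in sterile males, against 7.02% and 7.09% of all probe sets. Lip3, another lipase gene, had 114.4, 177 and 135.6 in sterile males against 298.1, 671.3 and 327.6 in fertile males, with no overlap, and did not pass (-1.43 ± 0.39, adjusted p = 0.251). The highest value was that of CG18302, at 0.55 (adjusted p = 0.754). A probe set that reads CG18284 and CG31872 together had 15861, 16657 and 19259 in sterile males against 36442, 30980 and 30577 in fertile males (-0.92 ± 0.12, adjusted p = 0.0107), while the probe set of CG18284 alone did not pass (-0.51, adjusted p = 0.586). Leaving out 1 array ended the call of CG6295 in every fit (adjusted p up to 0.204), of CG6271 without any of the fertile arrays (up to 0.0702) and of the shared probe set without sterile A or fertile A (up to 0.0709). Without the B arrays CG6277 (-2.33, adjusted p = 0.000964) and CG6283 (-1.04, adjusted p = 0.0385) passed, whereas CG6271 (0.084), CG6295 (0.15) and the shared probe set (0.0645) did not.

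CG7916, which lies in a gene cluster with CG8997, rose, with 5086, 4491 and 6087 in sterile A, B and C, against 1809, 1692 and 1690 in fertile males. The rise was 1.57 ± 0.15 on the log2 scale (SE, adjusted p = 0.00157; without the B arrays 1.66, adjusted p = 0.00827). Its 4 tested cluster neighbours did not pass; CG8997 measured 0.38 ± 0.17 and CG7953 -0.13 ± 0.15. Among 19 other gut peptidase genes none passed, with a median of -0.16 and values between -0.61 (CG15254) and 0.76 (CG2493, adjusted p = 0.203). One of the 19, CG31233, passed with the letter as a block (0.71, block adjusted p = 0.0441). Dip-B, a dipeptidase gene outside these lists, had 2816, 2737 and 2820 in sterile males against 1523, 1688 and 1388 in fertile males (0.86 ± 0.14, adjusted p = 0.0334), a call lost whichever array was left out (adjusted p up to 0.176) and without the B arrays (0.131).

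The mean log2 level of 16 midgut marker genes, a list that holds Jon25Biii, Jon44E, Jon65Ai and LysS again, was 13.61, 13.79 and 13.59 in sterile A, B and C, against 13.34, 13.22 and 13.22 in fertile males. Of the 16 genes those 4 rose and 0 fell, against 0.258% and 0.286% of all probe sets. The list was chosen with earlier results of these data known. Of the 16 genes 11 were above 0, and the median was 0.06, or -0.04 without the B arrays, against 0.01 over all probe sets. The part of midgut RNA content in the digestive gene results was not tested.

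**Figure D3:**
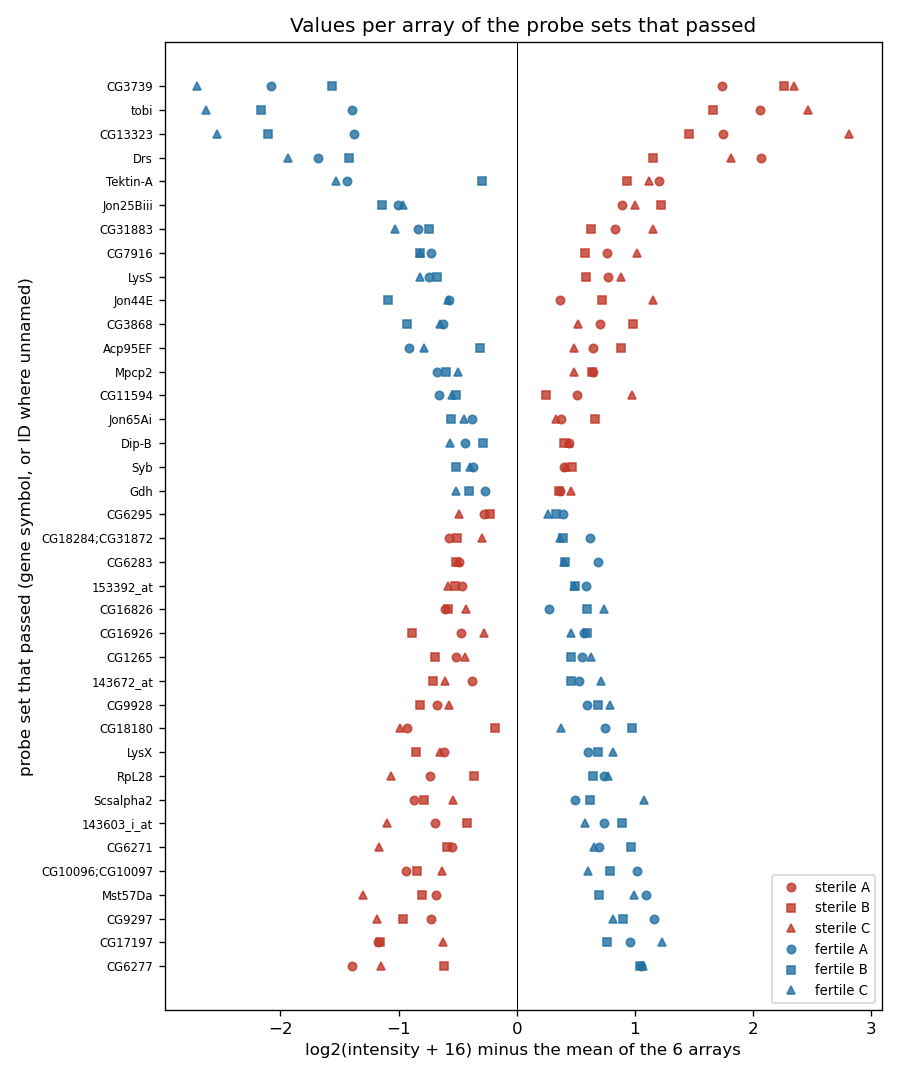
Values per array of the 38 probe sets that passed, as log2(intensity + 16) minus the mean of the 6 arrays, with sterile arrays in red, fertile arrays in blue and the letter A, B or C as a circle, square or triangle. Rows are ordered by log2 fold change, with CG3739 at 4.23 on top and CG6277 at -2.11 at the bottom, and in every row the 3 sterile points lie on 1 side of the 3 fertile points.

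Among antimicrobial peptide genes, Drs, which encodes the antifungal peptide drosomycin, was higher in sterile abdomens. It had 6835, 3612 and 5729 in sterile A, B and C, against 494, 594.9 and 411.4 in fertile males. The lowest sterile array was above the highest fertile array by several-fold, and the lines differed by 3.36 ± 0.25 on the log2 scale (SE, adjusted p = 0.000681; without the B arrays 3.75, adjusted p = 0.000561). It was the sole one of 8 tested antimicrobial genes to pass. Mtk, the gene of metchnikowin, varied more within lines than between them, with 2328, 7871 and 14800 in sterile males against 1602, 15059 and 3271 in fertile males (0.59 ± 0.82, adjusted p = 0.907). BomBc2, of the bomanin family, measured -0.59 ± 0.26 (adjusted p = 0.615). Of 20 tested genes for immune recognition and Toll or Imd signalling none passed. PPO3, a prophenoloxidase gene, had the highest value of that list (1.41 ± 0.47, adjusted p = 0.409) and pll, the kinase of the Toll pathway, the lowest (-0.998 ± 0.58, adjusted p = 0.745). SPE, the protease that activates the Toll ligand, had 3464, 2908 and 3225 in sterile males against 5180, 4535 and 4973 in fertile males (-0.61 ± 0.13, adjusted p = 0.103), and passed with the letter as a block (adjusted p = 0.0441).

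Seminal protein genes of the accessory gland held 1 gene that rose and 1 that fell among 17 tested, with a median of -0.05. Over all probe sets 0.258% rose and 0.286% fell. Mst57Da, an accessory gland transcript, had 10208, 9431 and 6644 in sterile A, B and C, against 35089, 26674 and 32572 in fertile males. It fell by 1.86 ± 0.18 on the log2 scale (SE, adjusted p = 0.00157) and measured -2.04 without the B arrays (adjusted p = 0.00666). Acp95EF, a seminal protein gene, had 4553, 5373 and 4074 in sterile males against 1541, 2343 and 1680 in fertile males (1.34 ± 0.19, adjusted p = 0.0134; without the B arrays 1.41, adjusted p = 0.021). The lines did not overlap for either gene. The Acp95EF call was lost without sterile A, sterile B, fertile A or fertile C (adjusted p up to 0.0754).

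Acp62F, which encodes a seminal protease inhibitor, had the lowest value of the list. It had 44, 384.4 and 42.9 in sterile males against 443.9, 852.6 and 501.8 in fertile males, with no overlap, and did not pass (-2.40 ± 0.70, adjusted p = 0.284). Of the 6 fits that left out 1 array it passed in 1, without sterile B, the sterile array that was brightest (-3.31, adjusted p = 0.0165). In the other such fits the adjusted p reached 0.626, and without the B arrays of both lines it was 0.146. SP, the sex peptide gene, had a difference near 0, with 12600, 10142 and 14037 against 12926, 10277 and 14987 (-0.05 ± 0.17). The Acp53 genes Acp53C14a and Acp53C14b measured 0.45 ± 0.18 and 0.55 ± 0.19 (adjusted p = 0.552 and 0.436), and the lines did not overlap for Acp53C14b. The mean log2 level of 8 accessory gland markers, Mst57Da, Acp95EF and Acp62F among them, was 9.79, 9.88 and 9.86 in sterile males against 10.23, 10.33 and 10.43 in fertile males. Of the 8 markers 2 were above 0, and the median of the list was -0.18, or 0.01 without the B arrays. The part of accessory gland RNA content was not tested. Among 4 ejaculatory duct and bulb genes and 15 serpin genes none passed, with medians of -0.01 and -0.07.

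Testis genes read within the whole abdomen mostly did not pass, as was true of all probe sets, of which 0.544% passed. At that share lists of this size would mostly hold no call, so the counts are no result about testis genes. None passed among 15 genes of spermatid and sperm structure (median -0.04), 10 cup and comet genes (0.16), 5 genes of meiotic arrest and male meiosis (0.07), 6 of germline stem cells, spermatogonia and piRNAs (-0.02) and 8 sperm aminopeptidase and testis proteasome genes (0.13). The bright sperm tail gene Mst84Da had 21995, 22868 and 27941 in sterile males against 21189, 26557 and 26707 in fertile males (-0.03 ± 0.14). Mst84Dc measured -0.33 ± 0.22 and Mst87F 0.24 ± 0.13, and both overlapped between the lines. The cup gene schuy had the highest value, at 1.14 ± 0.57 (adjusted p = 0.683), and rested on sterile C, with 224, 247.4 and 1222 in sterile males against 194.7, 163.6 and 176.3 in fertile males.

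The list of sperm tail motors and tektins held 1 gene that passed, where 0.544% of all probe sets did. This was Tektin-A, the gene of a filament protein of the sperm tail axoneme. It had 748.8, 620.8 and 705.8 in sterile A, B and C, against 107.1, 256.1 and 99.3 in fertile males. Fertile A and C lay below the filter of 201.3, while every sterile array was far above it. The lines did not overlap, and the log2 change was 2.17 ± 0.36 (SE, adjusted p = 0.0363; without the B arrays 2.64, adjusted p = 0.0269). The call was lost in 5 of 6 fits that left out 1 array (adjusted p up to 0.203), all but the one without fertile B. Among the other 9 tested genes of sperm tail motors and tektins none passed, and the dynein genes Dhc16F and robl37BC measured 0.02 and 0.01.

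Genes of mitochondrial energy metabolism lay slightly lower in sterile males as a list. Of 73 tested genes 57 were below 0, or 16 above, with a median of -0.14, where 48.99% of all probe sets were below 0. That share was not matched for brightness. Among other bright lists, 23 of 30 ribosomal protein genes, 15 of 20 muscle markers and 5 of 16 midgut markers were below 0. The 3 sterile values lay wholly below the 3 fertile ones in 23 of the 73 and wholly above in 3, against 7.02% and 7.09% of all probe sets. One gene passed. Scsalpha2, of the succinyl-CoA synthetase family in the citric acid cycle, had 476.6, 505.6 and 605 in sterile A, B and C, against 1253, 1370 and 1886 in fertile males (-1.46 ± 0.21, adjusted p = 0.0138), a call lost without sterile A, sterile B or fertile C (adjusted p up to 0.0792) and without the B arrays (0.11). With the letter as a block 4 fell, as the complex I genes ND-B12 (-0.83) and ND-B17.2 (-0.63) and the ATP synthase gene ATPsynCF6 (-0.57) joined it. The block fit called 26 higher and 39 lower among all 6983 probe sets. The brightest members lay near 0, with blw, the gene of the ATP synthase alpha subunit, at -0.02 ± 0.12 and UQCR-Q of complex III at -0.08 ± 0.12. Quantile normalization turned blw and UQCR-Q above 0. ND-20L, of complex I, had the highest value (1.02 ± 0.41, adjusted p = 0.561).

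Mpcp2, Gdh and Syb, outside that list, rose. Mpcp2, the mitochondrial phosphate carrier gene, had 3800, 3785 and 3399 in sterile A, B and C, against 1509, 1595 and 1716 in fertile males (1.18 ± 0.13, adjusted p = 0.00453; without the B arrays 1.15, adjusted p = 0.0585). Gdh, the glutamate dehydrogenase gene, had 5204, 5151 and 5533 in sterile males against 3345, 3031 and 2815 in fertile males (0.79 ± 0.13, adjusted p = 0.0311). Syb, of the synaptobrevin family of vesicle fusion proteins, had 2243, 2358 and 2271 in sterile males against 1313, 1185 and 1290 in fertile males (0.85 ± 0.14, adjusted p = 0.0334). Replicates of Syb were close in both lines. The calls of Gdh and Syb were lost whichever array was left out, with adjusted p up to 0.176 and 0.157, and without the B arrays (0.188 and 0.27).

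Among cytoplasmic ribosomal protein genes RpL28, of the large subunit, stood apart. It had 5700, 7382 and 4516 in sterile males against 15854, 14825 and 16149 in fertile males (-1.44 ± 0.17, adjusted p = 0.00523; without the B arrays -1.65, adjusted p = 0.00666). The RpL28 call was lost in the fit with no variance trend (adjusted p = 0.0837). Of 30 tested genes RpL28 alone passed, and the median was -0.05. In this list 23 were below 0, where 48.99% of all probe sets were. RpS20, RpL10Ab and RpL17, the brightest members, lay between -0.01 and 0.02. RpS30 measured 0.53 ± 0.13 (adjusted p = 0.208) and passed with the letter as a block (adjusted p = 0.0441).

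Several of the widest differences lay in genes known only by a systematic name. CG3739 had 1136, 1638 and 1740 in sterile A, B and C, against 65.6, 100.9 and 37 in fertile males, the widest difference of all that passed (4.23 ± 0.34, adjusted p = 0.000703; without the B arrays 4.43, adjusted p = 0.00606). CG13323 had 2747, 2239 and 5772 in sterile males against 299.9, 175.3 and 125.8 in fertile males (4.01 ± 0.39, adjusted p = 0.00157; without the B arrays 4.24, adjusted p = 0.00827). The fertile arrays of CG3739 lay below the filter of 201.3 and those of CG13323 on both sides of it, while the sterile arrays of both genes were far above it. CG3868 had 6471, 7889 and 5687 in sterile males against 2568, 2073 and 2523 in fertile males (1.47 ± 0.16, adjusted p = 0.00358). CG31883 (1.74 ± 0.27, adjusted p = 0.0248) and CG11594 (1.15 ± 0.20, adjusted p = 0.0451) rose too. The fertile values of CG31883, at 168.2, 179.5 and 144.4, all lay below the filter. The CG31883 call was lost whichever array was left out (adjusted p up to 0.147), and that of CG11594 in all such fits but the one without sterile B (up to 0.18). CG3868 passed without the B arrays (adjusted p = 0.0254), while CG31883 (0.087) and CG11594 (0.0682) did not.

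Among those that fell, CG9297 had 3651, 3085 and 2653 in sterile males against 13536, 11273 and 10652 in fertile males (-1.92 ± 0.16, adjusted p = 0.000703). A second, brighter probe set for CG9297 did not move with it (-0.06 ± 0.20, adjusted p = 0.972), so the probe sets of CG9297 disagree. CG17197, of the DHHC family of palmitoyltransferases, had 89.3, 90.6 and 138.3 in sterile males against 445.7, 389 and 542.6 in fertile males. The sterile arrays of CG17197 all lay below the filter of 201.3. Its call (-1.97 ± 0.34, adjusted p = 0.0451) was lost with the letter as a block (0.0519), whichever array was left out (up to 0.299) and without the B arrays (0.204). A probe set that reads CG10096 and CG10097, which encode proteins of the fatty acyl-CoA reductase family, fell by 1.61 ± 0.17 (adjusted p = 0.00247), while the other probe set with the same symbols measured -0.27 ± 0.19. CG9928 (-1.38 ± 0.16), CG1265 (-1.09 ± 0.15), CG16926 (-1.08 ± 0.18) and CG16826 (-1.08 ± 0.15) fell with no overlap between the lines (adjusted p = 0.00452, 0.0136, 0.0356 and 0.0116). CG9928 kept its call whichever array was left out, but not without the B arrays (0.0562). The calls of CG1265, CG16926 and CG16826 were lost in 4, 5 and 3 of the 6 fits that left out 1 array (adjusted p up to 0.104, 0.159 and 0.0748): CG1265 without sterile A, sterile B, fertile A or fertile C, CG16926 in all but the one without sterile C, and CG16826 without sterile A, fertile B or fertile C. The 3 probe sets with no symbol measured -1.47, -1.13 and -1.04 and passed too, the first of them not without fertile A (adjusted p = 0.0569). Without the B arrays CG9297 (adjusted p = 0.00827) and the CG10096 and CG10097 probe set (0.0332) passed, while CG1265 (0.11), CG16926 (0.188) and CG16826 (0.116) did not.

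With the letter as a block, 28 probe sets passed that had not passed before, 8 higher and 20 lower. The largest change among them was in Oatp58Dc, an organic anion transporter gene of the Malpighian tubule. It had 255.3, 217.9 and 44.6 in sterile A, B and C, against 1148, 1075 and 900.8 in fertile males (-2.75 ± 0.51, adjusted p = 0.0669, and 0.0186 with the block). The lines were far apart and the sterile arrays uneven, with C lowest. Without sterile C the value was -2.06 (adjusted p = 0.00805). Oatp58Dc did not pass when any other array was left out (adjusted p up to 0.241). A list of 7 tested Malpighian tubule markers that includes Oatp58Dc had mean log2 levels of 9.09, 9.47 and 8.79 in sterile males against 9.92, 9.92 and 9.58 in fertile males. In that list 6 of 7 were below 0 with a median of -0.33, and the proton pump gene Vha55 measured 0.32 ± 0.14. The part of tubule RNA content was not tested.

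Cdc14, a phosphatase gene of the cell cycle, had 348.8, 592.8 and 532.3 in sterile males against 81.7, 142.1 and 131.7 in fertile males, and its differences within letters were 1.90, 1.95 and 1.89 (block adjusted p = 0.045). The fertile arrays of Cdc14 all lay below the filter of 201.3. CG10657 (-1.07), CG15353 (-0.96), CG9628 (-0.89), an unnamed probe set (-0.88) and the one that reads Hsc70-4 and Acbp3 (-1.004) were lower with the block. Without sterile C the Hsc70-4 and Acbp3 probe set measured -1.17 (adjusted p = 0.028). It did not pass when any other array was left out (adjusted p up to 0.238). The protease gene teq (0.95) and the chitinase gene Cht9 (0.91) were higher with it.

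No gene passed in most of the remaining pathways. In 18 of the 28 pathway lists no gene passed, over 246 different tested genes, of which 3 passed with the letter as a block. Over all probe sets 0.544% passed, and 0.931% with the block, so lists of such sizes would mostly hold no call. Medians of those with at least 5 tested genes lay between -0.18 and 0.16. In the list of fat body storage and lipid transport FASN1, a fatty acid synthase gene, had 5767, 6283 and 6980 in sterile males against 4534, 3174 and 3582 in fertile males (0.76 ± 0.16, adjusted p = 0.0938). Tps1, the trehalose synthesis gene, had 4604, 4093 and 4179 in sterile males against 6720, 6273 and 6592 in fertile males (-0.60 ± 0.12, adjusted p = 0.0776), and passed with the block (0.0396). Both genes were apart between the lines on every array. Of the odorant-binding proteins Obp99c measured 0.76 ± 0.19 (adjusted p = 0.209, and 0.97 with adjusted p = 0.0359 without sterile B) and Obp56d -0.63 ± 0.19 (adjusted p = 0.3). None of 44 cytochrome P450 genes passed (median 0.04), with values between -0.47 (Cyp6g2) and 0.98 (Cyp9c1), and none of 34 genes for glutathione S-transferases and UDP-glucosyltransferases, between -1.05 (Ugt37D1) and 0.93 (Ugt35C1, adjusted p = 0.168). None of 12 heat shock protein genes passed (median 0.16), with Hsc70-1 highest at 0.76 (adjusted p = 0.409). The 7 clock genes tested, with Pdf lowest at -0.87 (adjusted p = 0.666), did not pass either, nor did the 8 genes of dosage compensation and heterochromatin (-0.41 to 0.63).

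**Figure D4:**
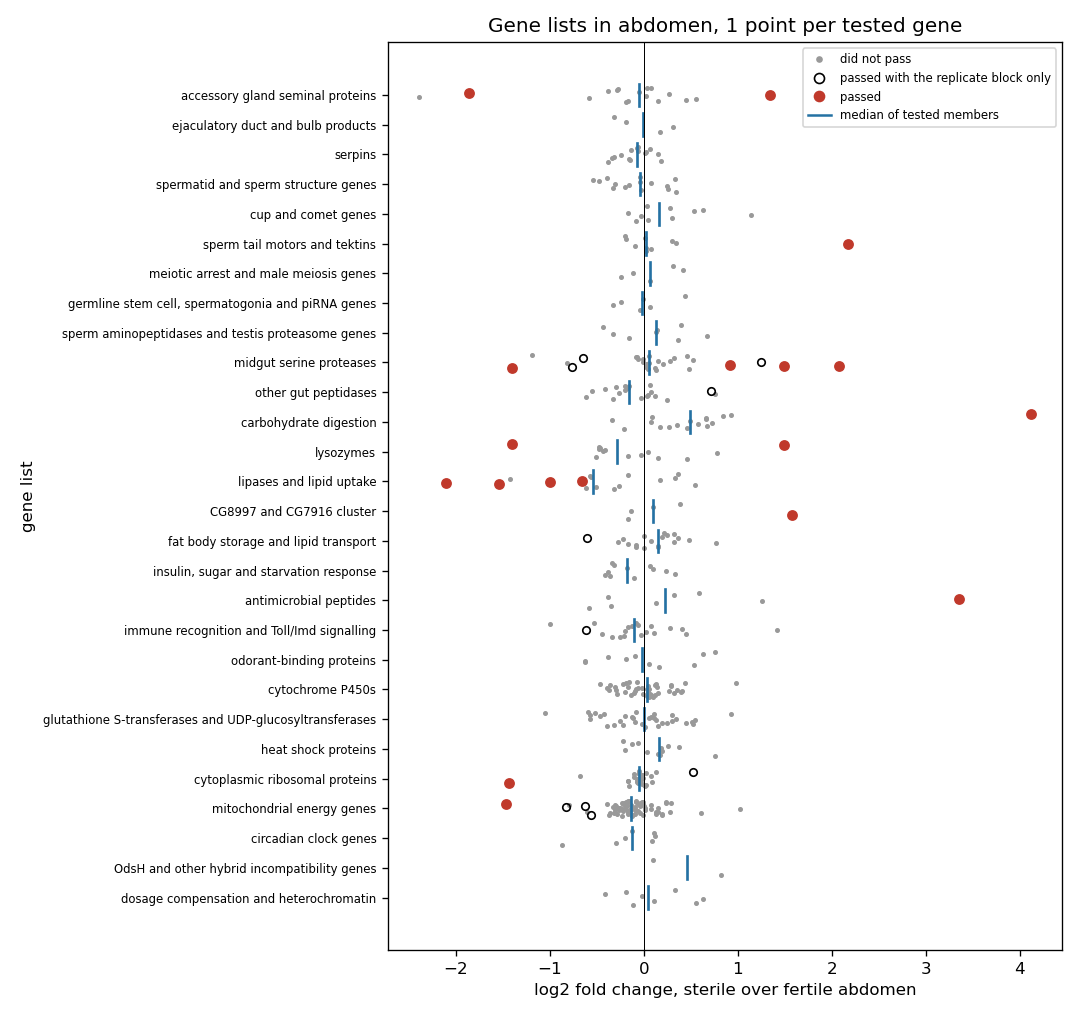
Sterile over fertile log2 fold changes in abdomen (horizontal axis) for the tested genes of the 28 pathway lists (rows), with genes that passed in red, genes that passed with the replicate block only as open circles and the median of each list as a blue line. The lipase row has the lowest median, -0.54, and the carbohydrate digestion row the highest, 0.49.

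OdsH itself lay far below the filter in abdomen. It had 49.4, 19.2 and 17 in sterile A, B and C, against 51.9, 33.6 and 17.6 in fertile males, so no fold is given. In a fit of all probe sets it did not pass (adjusted p = 0.969). Its paralog unc-4, which encodes a homeodomain protein known from motor neurons, had 230.2, 32.3 and 223.2 in sterile males against 124.3, 209.6 and 164.8 in fertile males (adjusted p = 0.965). The place of these probe sets relative to the differing exons is unknown, so they give no check on the labels. Of other hybrid incompatibility genes Nup160 (0.82 ± 0.36, adjusted p = 0.615) and Nup98-96 (0.10 ± 0.21), which encode nuclear pore proteins, were tested and did not pass.

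The abdomen difference was then set against the testis difference between the same lines, gene by gene, to ask whether it varied with tissue. The testis values come from another array design with tighter replicates (median residual SD on the log2 scale 0.30 in abdomen, against 0.05 in testis), so only differences between lines were compared, not levels. Of 4531 genes tested in both tissues, 101 (2.23%) had a log2 fold change that differed between abdomen and testis (limma estimates of each tissue, adjusted p under 0.05), 72 more positive and 29 more negative in abdomen. That count was 169 with the letter as a block and 60 without the B arrays. Of the genes that passed in abdomen 21 were tested in both tissues. For 19 of them the difference between tissues passed, and in 11 of the 21 the testis value had the other sign. These genes were picked by their abdomen change, which enters the difference, so a high share is built in and gives no measure of tissue dependence. Some of the testis values of other sign were near 0, as for Syb (-0.0004), CG9928 (0.06) and Mpcp2 (-0.07).

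Drs rose in both tissues, by 3.36 ± 0.25 in abdomen against 2.17 ± 0.03 in testis, and the tissues differed (adjusted p = 0.0432). CG31883 was also higher in both, at 1.74 ± 0.27 against 1.23 ± 0.03, with no detected difference (0.51 ± 0.27, adjusted p = 0.44), and CG16926 lower in both, at -1.08 ± 0.18 against -0.47 ± 0.06 (adjusted p = 0.142). CG3739 was near 0 in testis, at 4.23 ± 0.34 in abdomen against 0.03 ± 0.06 (adjusted p of the difference 6.99e-05), and CG13323 went the other way, at 4.01 ± 0.39 against -1.08 ± 0.07 (3.85e-05). Tektin-A measured 2.17 ± 0.36 in abdomen against -0.14 ± 0.03 in testis (0.00922), and Mst57Da -1.86 ± 0.18 against -0.08 ± 0.02 (0.000415). RpL28 (-1.44 ± 0.17 in abdomen against -0.04 ± 0.02 in testis, 0.00188) and Scsalpha2 (-1.46 ± 0.21 against 0.09 ± 0.02, 0.00344) differed between tissues too. Acp53C14b had the widest difference between tissues of all 4531 genes, at 0.55 ± 0.19 in abdomen against 8.79 ± 0.05 in testis (-8.24, adjusted p = 1.12e-09). Its deposited testis intensities were 7077, 6943 and 7211 in the sterile line, against -33.5, -32.7 and -33.2 in the fertile line, so the size of its testis value rests on the pseudocount and is no measured fold. Oatp58Dc, which passed with the block only, measured -2.75 ± 0.51 in abdomen against -2.69 ± 0.04 in testis (adjusted p = 0.975).

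Midgut genes also differed between the tissues. CG6295 measured -0.66 ± 0.11 in abdomen against -3.55 ± 0.07 in testis (adjusted p of the difference 1e-09). Of 9 midgut markers tested in both tissues 8 passed as more positive in abdomen, where 2.23% of all genes tested in both passed in either direction. The list was chosen with earlier results of these data known. A gene low in sterile testis could also enter the test through fertile testis, as CG6295 did (mean intensity 60.08 sterile, 873.8 fertile). The marker Jon25Bi (13.42 sterile, 897.1 fertile) was below the testis filter. The high share is thus partly built in and gives no measure of tissue dependence. The proteases alphaTry, betaTry, yip7, Jon25Bii, Jon65Aiii and Jon65Aiv were near 0 in abdomen, between -0.06 and 0.06, against -4.08 to -2.93 in testis. Jon25Biii was at 2.07 ± 0.14 in abdomen against -0.47 ± 0.07 in testis, and LysS at 1.49 ± 0.13 against -0.26 ± 0.09. LysP, at -0.48 ± 0.16 against -0.08 ± 0.06, did not pass (adjusted p = 0.316). How gut transcripts came to be read in dissected testis was not tested.

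**Figure D5:**
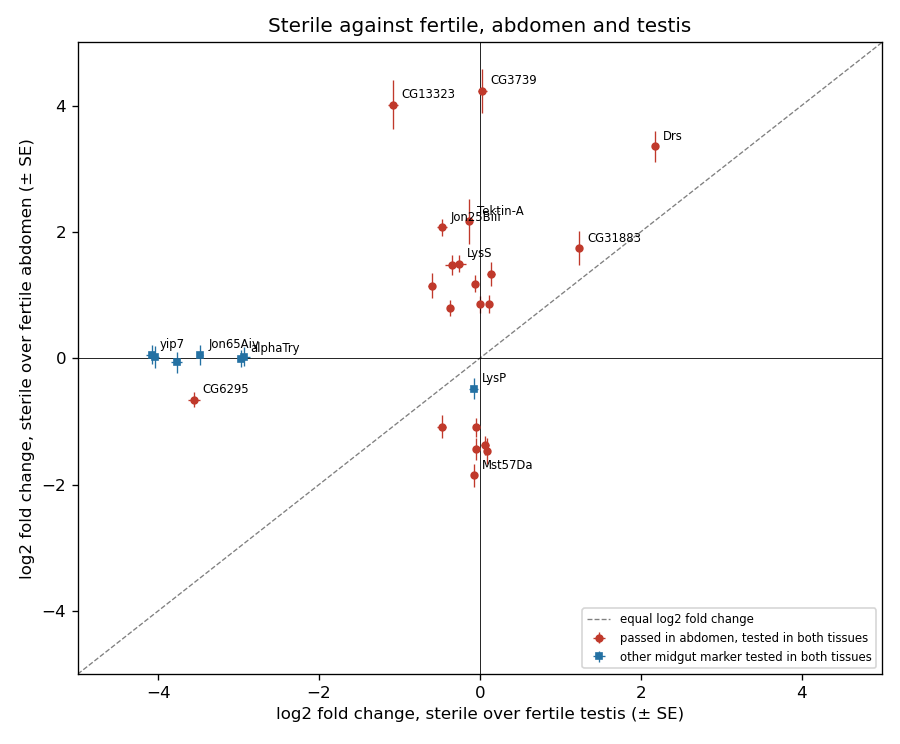
Sterile over fertile log2 fold change in abdomen (vertical axis) against that in testis (horizontal axis), each with its SE, for the 21 genes that passed in abdomen and were tested in both tissues (red) and the other midgut markers tested in both (blue squares). Most red points lie near 0 in testis, Drs and CG31883 are positive in both tissues, and 6 midgut proteases lie near 0 in abdomen and between -4.08 and -2.93 in testis.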

How the data were processed

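Abdomen RNA was read on an Affymetrix array made for D. melanogaster genes, testis RNA on another. The deposited abdomen intensity values are MAS5 signals on a linear scale, as the submitters' processing notes name the tool. Every one is above 0. The testis table, with deposited intensities below 0 in 26 to 37 probe sets per array (set to 0 here), cannot be plain MAS5 signal, and its making is not given in the sources used here. In abdomen the array medians were 208 to 223, so the deposited scale was kept.

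From log2(intensity + 16), probe sets were tested where the mean reached the median of the 13966 non-control ones (log2 7.76), which kept 6983. This leaves out dim transcripts, and the pseudocount of 16 understates changes of low ones. The mean is over both lines, so a probe set could enter the test through the line where it was brighter. Probe mismatches to D. simulans were not corrected. Of the abdomen probe sets 12442 had 1 gene symbol, 327 several and 1197 none, from the platform annotation. Each tissue was fitted with limma 3.58.1 (lmFit and eBayes with trend) in R 4.3.3. Tissue differences used both fits' estimates and standard errors, with Welch-Satterthwaite degrees of freedom in scipy 1.17.1, over the highest-mean probe set of each gene. The procedures were tested on simulated data. In simulated abdomen arrays 29.4% of the probe sets changed by 1 on the log2 scale were called. Of those changed by 2 and by 3, 83.3% and 98.5% were called. The number of arrays limits the precision.

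The replicate letters, which the titles give to both lines, were checked as pairs: same-letter deviations from the line means correlated at 0.15 (A), 0.288 (B) and 0.26 (C), other letters at -0.221 to -0.0157. Without the female and egg genes the value for B was 0.191. The letters were therefore taken to pair the arrays and entered as a block in a second fit; the labels do not say what a letter marks.

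The genes named were every one that passed with 1 symbol, per pathway list those that passed, up to 3 of the brightest and the highest and lowest value, OdsH and unc-4, and up to 10 that passed with the block only. Marker, paralog and neighbour genes beyond that rule, the 3 unnamed probe sets and the shared probe sets were chosen after their values were seen. The 28 pathway lists, 10 marker lists and all members were chosen with earlier results of these data known, and the list of female and egg genes after the values were seen. List counts set against all probe sets could therefore be partly built in. Alternatives were the pseudocount (1, 64), filter, median centring, quantile normalization, variance trend, block, array weights and leaving out each array. Leaving out the B arrays was added after the data were seen. A deposited table of testis results, including 12 columns per array that match no single sample, was not used.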

Additional observations from a re-analysis of the deposited data

Results flagged for a closer look

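The difference between sterile and fertile males was not the same in abdomen and testis for 34 of the genes named above, by a test of the difference itself (limma estimates, Benjamini-Hochberg adjusted p under 0.05 over genes tested in both tissues). Values are the abdomen log2 fold change minus the testis one.

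Among genes that passed in abdomen, the widest positive differences were those of CG13323 (5.09), CG3739 (4.20), CG6295 (2.90), Jon25Biii (2.54) and Tektin-A (2.31). Smaller ones were seen for CG3868 (1.82), LysS (1.76), CG11594 (1.75), Mpcp2 (1.25), Acp95EF (1.20), Drs (1.18), Gdh (1.16), Syb (0.85) and Dip-B (0.75). More negative in abdomen were Mst57Da (-1.78), Scsalpha2 (-1.55), CG9928 (-1.44), RpL28 (-1.39) and CG1265 (-1.04).

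The midgut proteases yip7 (4.14), Jon65Aiii (4.06), Jon65Aiv (3.53), betaTry (3.71), alphaTry (2.96) and Jon25Bii (2.96) differed between tissues although none of them passed in abdomen. In testis these genes were lower in the sterile line. So was the trypsin gene epsilonTry (3.16). CG6295, which was lower in both tissues, has a positive difference because its testis value is the lower one.

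Among other genes that did not pass in abdomen, Acp53C14b had the widest difference (-8.24), with fertile testis values below 0 before they were set to 0. CG7953 (2.29), Cdc14 (1.90), Ugt35C1 (1.42), teq (1.38) and FASN1 (0.89) were more positive in abdomen, and CG10657 (-1.71) and ATPsynCF6 (-0.67) more negative. Of these, Cdc14, teq, CG10657, ATPsynCF6 and epsilonTry passed in abdomen with the replicate block.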

How the results depend on the processing

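Of the 38 probe sets that passed in abdomen, 13 kept an adjusted p under 0.05 in all 9 alternatives that use every array, 18 in all 6 fits that left out 1 array and 12 in all of these; none changed sign. The count was 15 without a variance trend, 65 with the replicate block and 21 without the B arrays, and 20 to 31 when 1 array was left out. The count of genes whose difference varied between abdomen and testis, 101 in all, was 187 with no filter, 41 with a filter at the upper quartile, where fewer genes were tested, 64 without a variance trend, 169 with the replicate block, 60 without the B arrays and 56 to 104 when 1 array was left out. The block ended the call of CG17197 alone. Array weights were not run for the tissue difference. Some named genes that did not pass changed sign, most of them with values near 0. Without the B arrays, with or without the block, these were Spn100A (0.144), CG16820 (0.027), CG7953 (0.052), Mst84Da (0.059), Jon25Bii (-0.098), Jon65Aiii (-0.210), Jon65Aiv (-0.073), yip7 (-0.0066), Cp15 (-0.106), Vm26Aa (-0.237) and Yp1 (-0.158). Quantile normalization turned Dhc16F (-0.0048), robl37BC (-0.021), Mst84Da (0.051), RpL17 (0.105), RpS20 (0.122), SP (0.020), UQCR-Q (0.043), alphaTry (0.095), betaTry (0.096) and blw (0.046), and array weights turned Jon65Aiii (-0.020), RpS20 (0.0059) and alphaTry (0.012). When 1 array was left out, values ran between -0.124 and 0.495 for Spn27A, -0.437 and 0.073 for robl62A, -0.639 and 0.069 for bol, -0.311 and 0.025 for CG16820, -0.516 and 0.065 for Hsp68, -0.090 and 0.436 for cwo, -0.063 and 0.284 for Nup98-96, -0.474 and 0.082 for Amy-d, -0.255 and 0.024 for CG7953, -0.299 and 0.122 for the second CG9297 probe set, -0.169 and 0.202 for Dhc16F, -0.088 and 0.185 for robl37BC, -0.142 and 0.035 for Mst84Da, -0.116 and 1.494 for Mtk, and -0.196 and 0.080 for SP. They ran between -0.092 and 0.160 for RpL10Ab, -0.071 and 0.054 for RpL17, -0.121 and 0.089 for RpS20, -0.107 and 0.061 for blw, -0.098 and 0.178 for Jon25Bii, -0.211 and 0.138 for Jon65Aiii, -0.083 and 0.191 for Jon65Aiv, -0.100 and 0.106 for alphaTry, -0.190 and 0.076 for betaTry and -0.040 and 0.189 for yip7. For Cp15 (-1.993 to 2.236), Vm26Aa (-2.025 to 1.908) and Yp1 (-2.223 to 2.256) the ends are the fits without 1 of the B arrays. Their cause was not tested.

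Fits without the B arrays leave 2 arrays per line, so a call lost there need not mean a smaller difference. The residual SD of 0.30 on the log2 scale and the 3 arrays per line limit what could be detected, and dim genes such as OdsH were not measured above the filter.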
